A study of Mus musculus with 42 samples.

Results

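The 6 transcripts Nyx, Matn1, Rnase1, Meltf, Acta1 and Gm9732, close to absent from the control mouse kidney and higher once Tsc2 is lost, were described across all 14 groups of the series. They are 6 of the 54532 genes in each deposited table. The 6 genes were chosen by their own readout, namely near-zero counts in control kidneys and large rises in Tsc2 KO kidneys, so the values of those groups are given as a description and carry no test. Tests were kept for groups that the choice did not use, which are the Tfeb KO, double knockout (DKO) and rapamycin-treated kidneys.

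The series measured poly-A RNA from whole mouse kidneys on a C57BL/6 background in 42 libraries, 3 per group. In the CaggCreERT2 cohort, killed at postnatal day 30, a tamoxifen-inducible Cre active throughout the body deleted floxed Tsc2 (Tsc2 KO), floxed Tfeb (Tfeb KO) or both (DKO) after tamoxifen reached the pups through their nursing mothers, and the controls carried the Cre and received tamoxifen but had no floxed Tsc2. In the KspCre cohort, killed at postnatal day 50, Cre was driven by the cadherin16 promoter of kidney epithelium, the same 3 knockouts were compared with Cre-negative controls, and cells outside the epithelium are not a target of this Cre. A further KspCre cohort of control, Tsc2 KO and DKO mice, also killed at day 50, received vehicle or rapamycin at 1 mg/kg, 3 times a week from day 25, for 11 injections. These groups model loss in bulk tissue, in which fewer cells of a type and less RNA per cell cannot be told apart.

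TSC2 is part of the complex that restrains mTORC1, the kinase that couples nutrients and growth factors to cell growth, and rapamycin is an allosteric inhibitor of mTORC1. TFEB is a transcription factor of lysosome biogenesis that mTORC1 normally keeps in the cytoplasm, and TFE3 is its close relative. In kidneys, loss of TSC2 is known for cysts and tumours. The 6 genes have their known roles elsewhere. Nyx encodes nyctalopin, a leucine-rich repeat protein of retinal bipolar cells, Matn1 encodes matrilin-1 of the cartilage matrix, and Rnase1 encodes a secreted ribonuclease of the pancreatic type. Meltf encodes melanotransferrin, a membrane-anchored iron-binding relative of transferrin first known from melanoma, and Acta1 encodes the actin of skeletal muscle fibres. Gm9732 is a predicted gene, annotated as protein-coding in the deposited tables and as a long non-coding RNA in RefSeq.

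In mm10 coordinates of the deposited tables, Nyx (ENSMUSG00000051228) lies at chrX:13466110-13489313 on the plus strand, Matn1 (ENSMUSG00000040533) at chr4:130944385-130955475 on the plus strand and Meltf (ENSMUSG00000022780) at chr16:31878810-31899020 on the plus strand. Rnase1 (ENSMUSG00000035896) lies at chr14:51144998-51146785 on the minus strand and Acta1 (ENSMUSG00000031972) at chr8:123891769-123894751 on the minus strand. Gm9732 (ENSMUSG00000115483) lies at chr14:43275036-43306011 on the plus strand, inside a cluster of similar predicted genes and with exons that overlap Gm8127 on the other strand. The libraries did not mark strand, so the share of Gm9732 reads that came from its relatives or from Gm8127 is uncertain.

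A promoter sequence was matched for 5 of the 6 genes in the RefSeq table (GRCm38.p6). The sequences of 3 are shown, each covering the 250 bases before the RefSeq start, because they belong to the member that followed Nyx most closely over the groups (Meltf), the member whose level differed most between DKO and Tsc2 KO in untreated KspCre kidneys (Matn1) and the member whose pattern stood apart (Acta1). The windows are chr16:31878560-31878809 on the plus strand, chr4:130944135-130944384 on the plus strand and chr8:123894776-123895025 on the minus strand. Capitals mark a TATAAA match on the strand shown.
Meltf: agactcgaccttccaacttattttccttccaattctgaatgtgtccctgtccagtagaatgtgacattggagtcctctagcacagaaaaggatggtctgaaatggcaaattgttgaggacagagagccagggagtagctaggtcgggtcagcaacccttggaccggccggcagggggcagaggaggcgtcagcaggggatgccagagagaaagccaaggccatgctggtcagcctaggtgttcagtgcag
Matn1: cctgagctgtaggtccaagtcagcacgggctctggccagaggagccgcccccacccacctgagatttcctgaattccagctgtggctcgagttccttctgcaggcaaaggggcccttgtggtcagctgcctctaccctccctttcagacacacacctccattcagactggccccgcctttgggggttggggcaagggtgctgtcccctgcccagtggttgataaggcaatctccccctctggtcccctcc
Acta1: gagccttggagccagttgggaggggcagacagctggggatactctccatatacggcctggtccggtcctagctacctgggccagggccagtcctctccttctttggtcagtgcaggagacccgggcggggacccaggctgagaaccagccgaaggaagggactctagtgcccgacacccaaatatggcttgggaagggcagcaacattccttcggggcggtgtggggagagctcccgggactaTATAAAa

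The search covered 4 motifs on both strands, namely CACGTG, the core E-box bound by basic helix-loop-helix factors, TCACGTGA, the longer palindrome of the lysosomal gene network that holds the E-box core within it, TCATGTG, the M-box of the MITF and TFE family, and TATAAA. The letters of the first 3 motifs were not found in the 5 promoters, and in the order given they are present in 6.02%, 0.786% and 3.25% of the 32817 mouse promoter windows of this length. TATAAA is present in 12.4% of them and was found once among the 5, in Acta1. The G and C content was 62.0% for Matn1, 61.2% for Acta1, 54.0% for Meltf, 45.6% for Rnase1 and 44.8% for Nyx, against a median of 52.4% over all windows. The RefSeq start of Nyx lies 5020 bases upstream of the start in the deposited tables, so its window is not the one next to the counted transcript.

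Library totals ran from 14926050 to 22807605 counts. The targeted genes were first checked against the labels, with levels given as FPKM, read fragments scaled by transcript length and library depth. Tsc2 stood at 9.81 to 10.6 FPKM in CaggCreERT2 controls and 4.06 to 4.55 in Tsc2 KO, and at 8.75 to 9.26 and 3.54 to 4.37 in the KspCre cohort. With vehicle it stood at 8.59 to 9.81 FPKM in controls, 3.8 to 4.47 in Tsc2 KO and 5.53 to 6.41 in DKO. With rapamycin it stood at 8.18 to 8.93, 5.06 to 6.5 and 5.83 to 5.97. Tsc2 KO kidneys thus held more Tsc2 with rapamycin than with vehicle, without overlap, and the part of this in the results was not tested. In the count table and the FPKM table, 4 CaggCreERT2 libraries have different names, and 2 of these differ in genotype. Under the FPKM names, used here, Tsc2 was 9.05 to 10.2 FPKM in Tfeb KO and 4.82 to 5.64 in DKO, whereas under the count names it was 5.26 to 9.34 and 4.82 to 10.2. Tfeb was 4.57 to 8.02 FPKM in CaggCreERT2 controls, 2.73 to 3.73 in Tfeb KO and 1.99 to 3.48 in DKO. Tfeb in untreated KspCre kidneys was 5.85 to 6.24 FPKM in controls, 4.32 to 5.25 in Tfeb KO, 2.65 to 4.09 in DKO and 3.66 to 6.12 in Tsc2 KO, so that Tfeb KO and DKO each overlapped Tsc2 KO. Without rapamycin, summed proximal tubule markers (5 genes) were lower in Tsc2 KO than in controls. They were at 9530 to 10800 FPKM in CaggCreERT2 controls and 441 to 3580 in Tsc2 KO. In untreated KspCre kidneys they were at 9050 to 11300 and 893 to 2040. With rapamycin these markers overlapped, at 4930 to 7770 FPKM in controls and 5770 to 7770 in Tsc2 KO, and were at 8720 to 8840 in DKO. Their part in the results below was not tested.

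All 6 genes passed the filter on low counts in every cohort, which they could do through the Tsc2 KO libraries alone. Every Tsc2 KO library lay above every control library for 6 of 6 genes in CaggCreERT2 kidneys, for 5 of 6 in KspCre kidneys (Acta1 overlapped) and for 6 of 6 in vehicle-treated KspCre kidneys. The shares of all genes that do so were 19.5%, 19.7% and 24.5%. These contrasts chose the members, so nothing is read from the counts.

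**Figure D1:**
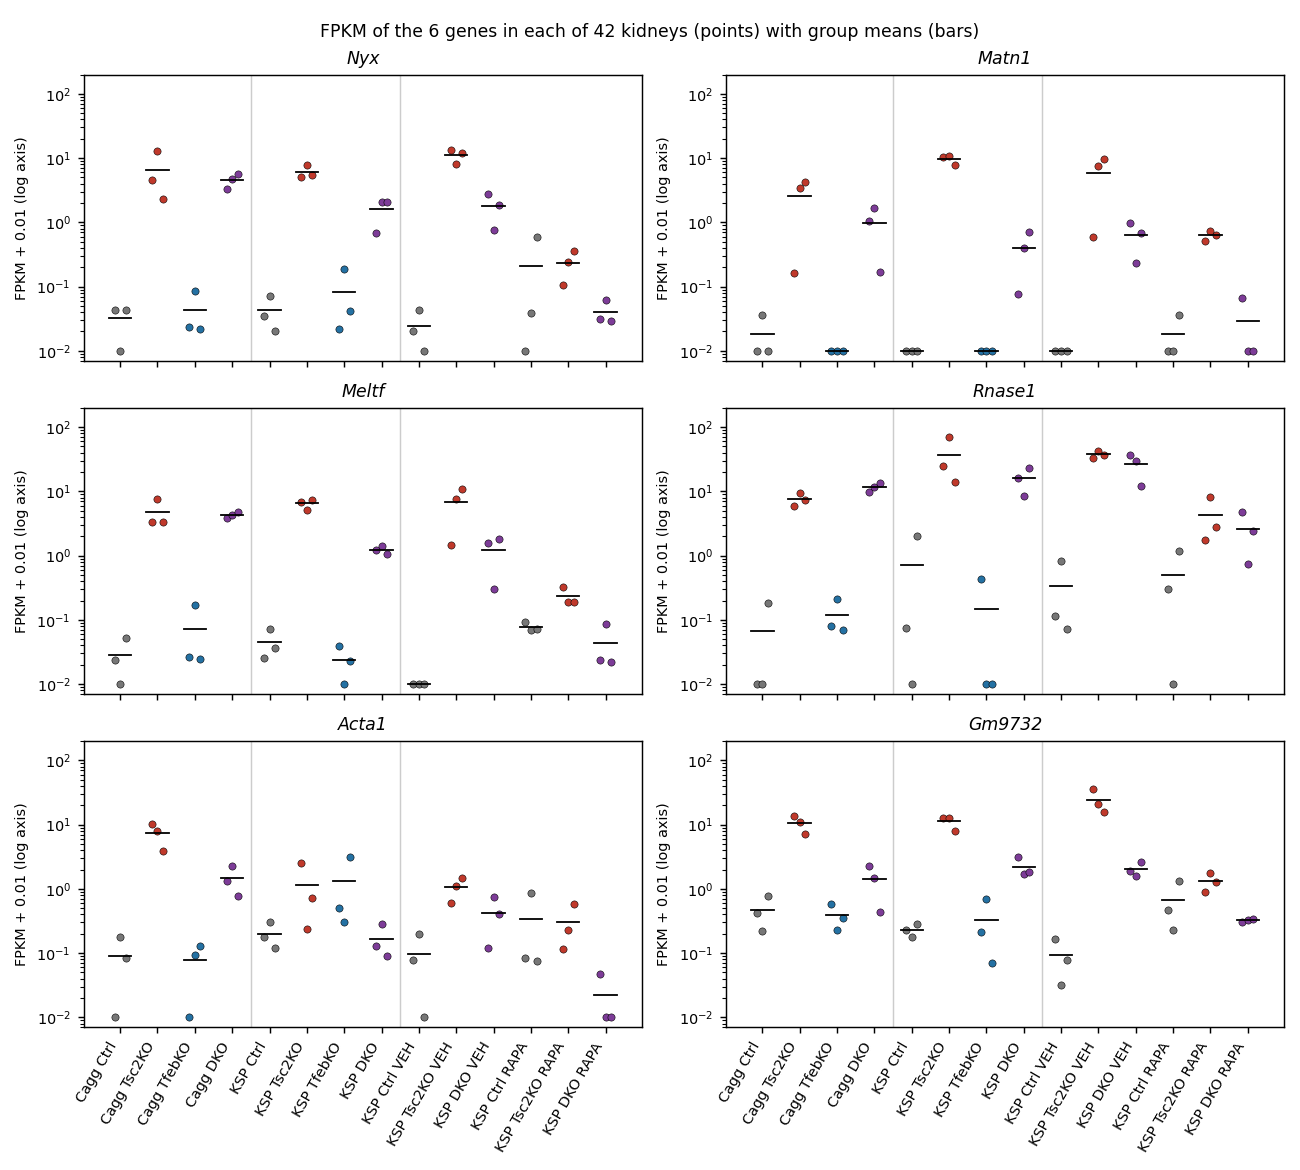
FPKM (plus 0.01, log axis) of the 6 genes in each of the 42 kidneys, by group. Points are single kidneys and bars are group means, with control in grey, Tsc2 KO in red, Tfeb KO in blue and DKO in purple. Untreated control and Tfeb KO kidneys sit below the Tsc2 KO kidneys for every gene but Acta1, which overlaps between KspCre groups. Tsc2 KO kidneys given rapamycin lie at 0.0963 to 0.351 FPKM for Nyx, 0.178 to 0.309 for Meltf and 1.73 to 8.15 for Rnase1.

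Nyx, the nyctalopin gene, stood at 0.0337, 0 and 0.0329 FPKM in the CaggCreERT2 controls and at 4.6, 12.9 and 2.34 in Tsc2 KO. It stood at 0.0134, 0.0758 and 0.0116 FPKM in Tfeb KO and at 3.35, 4.64 and 5.57 in DKO. The DKO kidneys therefore overlapped the Tsc2 KO kidneys, and none overlapped Tfeb KO. In the untreated KspCre cohort, Nyx was at 0.0247, 0.0622 and 0.0107 FPKM in controls, 4.99, 7.7 and 5.54 in Tsc2 KO, 0.0115, 0.176 and 0.031 in Tfeb KO, and 0.674, 2.07 and 2.09 in DKO. Here every DKO kidney was below every Tsc2 KO kidney, with a fitted log2 difference of -1.92 ± 0.54 (SE) given as a description. With vehicle, Nyx was at 0.0101, 0.0337 and 0 FPKM in controls, 13.4, 8.07 and 12 in Tsc2 KO, and 2.8, 0.761 and 1.85 in DKO. With rapamycin it was at 0, 0.0283 and 0.573 FPKM in controls, 0.0963, 0.232 and 0.351 in Tsc2 KO, and 0.0218, 0.052 and 0.0187 in DKO. Control replicate 3 of the rapamycin group, with 58 Nyx counts against 0 and 3 in the other 2, was the highest of all rapamycin kidneys.

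Matn1, the matrilin-1 gene, had no count in any of the 12 libraries of the untreated and vehicle KspCre controls and of the Tfeb KO kidneys of both cohorts. In CaggCreERT2 kidneys it stood at 0, 0.0255 and 0 FPKM in controls, 0.153, 3.42 and 4.19 in Tsc2 KO and 1.05, 1.65 and 0.157 in DKO. Tsc2 KO replicate 1 had 6 counts against 110 and 142 in the others, so the level was uneven between mice. Untreated KspCre Tsc2 KO kidneys held 10.5, 10.7 and 7.72 FPKM and DKO kidneys 0.0671, 0.388 and 0.696. The Tsc2 KO level was at least 113-fold above controls, taking a floor of 3 counts per library for groups at 0, and the fitted log2 difference of DKO from Tsc2 KO was -4.68 ± 0.67 (SE). With vehicle, Tsc2 KO kidneys held 0.581, 7.46 and 9.62 FPKM and DKO kidneys 0.969, 0.224 and 0.669. The low vehicle replicate 1 made these groups overlap. With rapamycin, controls held 0, 0 and 0.0256 FPKM, Tsc2 KO kidneys 0.499, 0.735 and 0.626, and DKO kidneys 0.0564, 0 and 0.

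Rnase1, the secreted ribonuclease gene, reached the highest levels of the 6 in most groups without Tsc2. In CaggCreERT2 kidneys it was at 0, 0 and 0.172 FPKM in controls, 6, 9.36 and 7.44 in Tsc2 KO, 0.07, 0.198 and 0.0605 in Tfeb KO, and 9.86, 11.6 and 13.3 in DKO. Every DKO kidney was above every Tsc2 KO kidney, with a fitted log2 difference of 0.59 ± 0.34 (SE), and no other member showed that order in this cohort. In untreated KspCre kidneys it was at 0.0645, 0 and 2.02 FPKM in controls, 24.9, 71.3 and 14.1 in Tsc2 KO, 0.42, 0 and 0 in Tfeb KO, and 16.1, 8.54 and 23 in DKO. Control replicate 3 held 36 counts against 1 and 0. With vehicle it was at 0.106, 0.821 and 0.0621 FPKM in controls, 33.6, 42.5 and 36.5 in Tsc2 KO, and 37.2, 29.3 and 12.2 in DKO. With rapamycin it was at 0.292, 0 and 1.19 FPKM in controls, 1.73, 8.15 and 2.78 in Tsc2 KO, and 4.78, 0.725 and 2.39 in DKO. DKO and Tsc2 KO overlapped in all 3 KspCre settings.

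Meltf, the melanotransferrin gene, was at 0.0141, 0 and 0.0413 FPKM in CaggCreERT2 controls, 3.34, 7.48 and 3.32 in Tsc2 KO, 0.0168, 0.158 and 0.0145 in Tfeb KO, and 3.85, 4.25 and 4.7 in DKO. As for Nyx, the CaggCreERT2 DKO kidneys lay within the Tsc2 KO range. Levels in untreated KspCre kidneys were 0.0155, 0.0624 and 0.0269 FPKM in controls, 6.82, 5.19 and 7.43 in Tsc2 KO, 0.0288, 0 and 0.013 in Tfeb KO, and 1.21, 1.42 and 1.05 in DKO. The KspCre DKO level was below Tsc2 KO in every kidney, with a fitted log2 difference of -2.40 ± 0.31 (SE). With vehicle it was at 0 in all 3 controls, at 1.47, 7.73 and 11 FPKM in Tsc2 KO and at 1.59, 0.29 and 1.78 in DKO. With rapamycin it was at 0.084, 0.0591 and 0.0619 FPKM in controls, 0.309, 0.178 and 0.182 in Tsc2 KO, and 0.0137, 0.0761 and 0.0117 in DKO. Rapamycin controls therefore held 5 or 6 Meltf counts each where vehicle controls held none.

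Acta1, the skeletal muscle actin gene, followed the description best in CaggCreERT2 kidneys. There it was at 0, 0.166 and 0.074 FPKM in controls, 10.3, 8.07 and 3.88 in Tsc2 KO, 0, 0.0852 and 0.117 in Tfeb KO, and 1.33, 2.24 and 0.778 in DKO. Every DKO kidney was below every Tsc2 KO kidney, with a fitted log2 difference of -2.38 ± 0.52 (SE). In untreated KspCre kidneys it was at 0.167, 0.294 and 0.109 FPKM in controls, 2.53, 0.229 and 0.703 in Tsc2 KO, 0.503, 0.297 and 3.11 in Tfeb KO, and 0.117, 0.272 and 0.0788 in DKO. Tsc2 KO overlapped the controls, and the highest kidney was a Tfeb KO, so Acta1 does not answer to the description in this cohort. With vehicle it was at 0.0683, 0.189 and 0 FPKM in controls, 0.593, 1.09 and 1.49 in Tsc2 KO, and 0.111, 0.747 and 0.391 in DKO. With rapamycin it was at 0.0754, 0.858 and 0.0666 FPKM in controls, 0.108, 0.218 and 0.571 in Tsc2 KO, and 0.0367, 0 and 0 in DKO.

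Other muscle transcripts were read beside Acta1, since they mark the tissue in which it is known. Over 10 muscle markers, with Pvalb left out because it dominated the sum and is also made by distal tubule cells, the summed level was 2.32 to 3.18 FPKM in CaggCreERT2 controls and 1.67 to 1.95 in Tsc2 KO, the group with the highest Acta1. Ckm, muscle creatine kinase, was at 0.0175, 0.0428 and 0 FPKM in those Tsc2 KO kidneys, and Myh4, a fast myosin heavy chain, was at 0 in each. In the KspCre Tfeb KO kidney with 3.11 FPKM of Acta1, Ckm was at 0.294 FPKM and the fast troponin Tnnt3 at 0.88, against 0 and 0 for Ckm and 0 and 0.192 for Tnnt3 in the other 2. In the rapamycin control with 0.858 FPKM of Acta1, Ckm was at 0.386 and Myh4 at 0.593 FPKM. The 10 markers summed to 5.26 FPKM in that Tfeb KO kidney, against 2.36 and 3.18 in the others of its group. In that rapamycin control they summed to 4.99 FPKM, against 2.2 and 2.3 in the others. In the KspCre Tsc2 KO kidney with 2.53 FPKM of Acta1, both Ckm and Myh4 were at 0. The summed muscle markers of the 3 untreated KspCre Tsc2 KO kidneys were 2.95, 1.96 and 2.54 FPKM, in the same order as their Acta1. The sums were 3.79 to 4.17 FPKM in CaggCreERT2 DKO and 2.03 to 3.92 in Tfeb KO. Smooth muscle markers (5 genes) summed to 65.6 to 151 FPKM in CaggCreERT2 Tsc2 KO kidneys and 35.1 to 42.4 in controls. The part of muscle in the Acta1 levels was not tested.

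**Figure D2:**
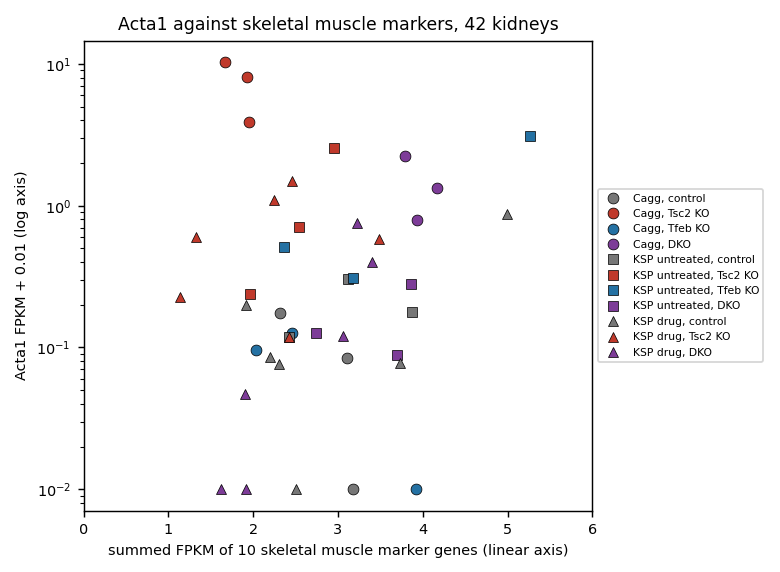
Acta1 FPKM (plus 0.01, log axis) against the summed FPKM of 10 skeletal muscle markers in each kidney, coloured by genotype, with vehicle and rapamycin kidneys not distinguished. The 3 CaggCreERT2 Tsc2 KO kidneys have the highest Acta1 (3.88 to 10.3 FPKM) at muscle sums of 1.67 to 1.95 FPKM.

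Gm9732 was the member with the most signal in the CaggCreERT2 controls. In CaggCreERT2 kidneys it was at 0.416, 0.211 and 0.769 FPKM in controls (19, 11 and 36 counts), 13.7, 11.1 and 7.08 in Tsc2 KO, 0.574, 0.221 and 0.338 in Tfeb KO, and 2.3, 1.47 and 0.425 in DKO. It was therefore low but not silent before Tsc2 loss, and DKO overlapped the controls. In untreated KspCre kidneys it was at 0.217, 0.17 and 0.272 FPKM in controls, 12.9, 12.9 and 8.09 in Tsc2 KO, 0.201, 0.685 and 0.0604 in Tfeb KO, and 3.13, 1.7 and 1.8 in DKO. With vehicle it was at 0.158, 0.0219 and 0.0695 FPKM in controls, 35.9, 20.6 and 15.9 in Tsc2 KO, and 1.91, 1.59 and 2.6 in DKO. Every DKO kidney was below every Tsc2 KO kidney in all 3 cohorts, with fitted log2 differences of -2.94 ± 0.52 (SE), -2.35 ± 0.50 and -3.56 ± 0.47 in the order given. With rapamycin it was at 0.457, 0.22 and 1.33 FPKM in controls, 0.876, 1.78 and 1.27 in Tsc2 KO, and 0.297, 0.321 and 0.327 in DKO.

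Ordered by group mean, Nyx, Rnase1, Meltf and Gm9732 were highest in vehicle-treated KspCre Tsc2 KO kidneys (11.1 ± 2.76, 37.6 ± 4.54, 6.73 ± 4.84 and 24.1 ± 10.5 FPKM, SD, n = 3), Matn1 in untreated KspCre Tsc2 KO kidneys (9.66 ± 1.69) and Acta1 in CaggCreERT2 Tsc2 KO kidneys (7.41 ± 3.24). The second group in that order was another Tsc2 KO group for these 4 genes and Matn1. Its mean ± SD overlapped that of the first for Meltf (6.48 ± 1.16 FPKM), Rnase1 (36.7 ± 30.4), Nyx (6.62 ± 5.58), Gm9732 (11.3 ± 2.79) and Matn1 (5.89 ± 4.72). For Acta1 the second group was CaggCreERT2 DKO (1.45 ± 0.736), which did not overlap the first. Without rapamycin, the DKO groups came below the Tsc2 KO groups for Nyx, Matn1, Meltf and Gm9732 in group means. These orders set tables side by side that were normalised separately.

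The first tested question was whether Tsc2 loss raises these genes when Tfeb is also deleted, comparing DKO with Tfeb KO. In CaggCreERT2 kidneys Nyx, Matn1, Rnase1, Meltf and Acta1 rose, 5 of 6 genes, where 8.36% of the 16348 genes tested rose (edgeR quasi-likelihood test, Benjamini-Hochberg adjusted p at or below 0.05). Nyx rose by 7.03 ± 0.81 (SE) on the log2 scale (edgeR adjusted p = 1.86e-04), Rnase1 by 6.65 ± 0.53 (1.10e-05), Meltf by 6.06 ± 0.60 (6.34e-05) and Acta1 by 4.29 ± 0.79 (0.0041). Matn1, with no count in Tfeb KO, was at least 9.37-fold higher in DKO (edgeR adjusted p = 0.0335). It entered the test through the Tsc2 KO libraries, which helped choose it, and with only the groups compared it was not kept by the filter, leaving 4 genes that passed. Without Tfeb KO replicate 2, which held the most Nyx, Meltf and Rnase1 of its group, these 3 rose by 8.35, 7.94 and 7.33, and without Tfeb KO replicate 3 Acta1 rose by 4.92. Gm9732 did not pass, at 1.91 ± 0.60 on the log2 scale (edgeR adjusted p = 0.0575), and its groups overlapped, while DESeq2 (adjusted p = 0.0374) and edgeR without the filter (9.31e-05) called it. Under the names of the count table, which exchange 1 DKO and 1 Tfeb KO library, none of the 6 passed in edgeR, and with both of these libraries left out 4 passed. Xist, the X-linked marker of female tissue, was at 19.1 to 57.5 FPKM in the Tfeb KO kidneys and at 0.0123, 0 and 13.9 in DKO, and with Xist as a covariate 3 of 6 passed (Nyx, Rnase1 and Meltf), while Acta1 was at 3.58 on the log2 scale (edgeR adjusted p = 0.0755) and Matn1 had an adjusted p of 0.299. Nyx itself is X-linked. Proximal tubule markers summed to 4430 to 5050 FPKM in DKO and 9710 to 16100 in Tfeb KO, and proliferation markers (4 genes) to 14.3 to 18.6 and 8.04 to 12.6, neither with overlap, and their part in the changes was not tested.

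In untreated KspCre kidneys Nyx, Matn1, Rnase1, Meltf and Gm9732 rose in DKO over Tfeb KO, 5 of 6 genes against 3.41% of the 16631 tested. Rnase1 rose by 6.70 ± 1.30 (SE) on the log2 scale (edgeR adjusted p = 0.0174), Nyx by 4.57 ± 0.70 (0.00724) and Gm9732 by 2.88 ± 0.57 (0.0188). Meltf had 282 pooled counts in DKO and 3 in Tfeb KO, a ratio of 93 at equal depth with an exact 95% counting interval of 31.5 to 454 (edgeR adjusted p = 2.01e-04). Matn1 was at least 4.58-fold higher (edgeR adjusted p = 0.0413), and again entered through the Tsc2 KO libraries. With only the groups compared, 2 genes passed (Meltf, edgeR adjusted p = 0.0212, and Rnase1, 0.0394), and Nyx (0.0733) and Gm9732 (0.132) did not. Matn1 and Acta1 were not kept by the filter in that fit, so Acta1 also entered its test through the Tsc2 KO libraries. The 7 Rnase1 counts of Tfeb KO replicate 1 were the only ones of that group, and without this kidney the fitted value was 11.11 (edgeR adjusted p = 0.0399), which is no bound. Without Tfeb KO replicate 2, Nyx rose by 6.12 and Gm9732 by 4.08. Acta1 went the other way, at -3.06 ± 1.06 on the log2 scale, with every DKO kidney below every Tfeb KO kidney, and did not pass in edgeR (adjusted p = 0.0978) but did in DESeq2 (adjusted p = 0.0243). Without Tfeb KO replicate 3, the kidney with 3.11 FPKM of Acta1, the Acta1 value was -1.36 (edgeR adjusted p = 0.367). The count of 5 fell to 3 without Tfeb KO replicate 1 (Matn1 and Gm9732 lost) or without Tfeb KO replicate 2 (Matn1 and Rnase1 lost). Proliferation markers summed to 5.29 to 10.1 FPKM in DKO and 1.36 to 3.28 in Tfeb KO, with 3 of 4 genes higher in edgeR, and proximal tubule markers to 4500 to 7740 and 5290 to 16100. Thick limb and distal tubule markers (5 genes) summed to 2200 to 3760 FPKM in DKO and 1080 to 1830 in Tfeb KO, without overlap. One DKO kidney had summed macrophage markers (8 genes) of 277 FPKM, against 26.5 to 54.6 in control and Tfeb KO kidneys, and without DKO replicate 1 the count was still 5. Of these 8 genes 0 passed in edgeR, DESeq2 called 4 higher, and 6 were higher at an unadjusted p under 0.05, which 26.5% of all genes had in either direction. The part of these markers was not tested.

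**Figure D3:**
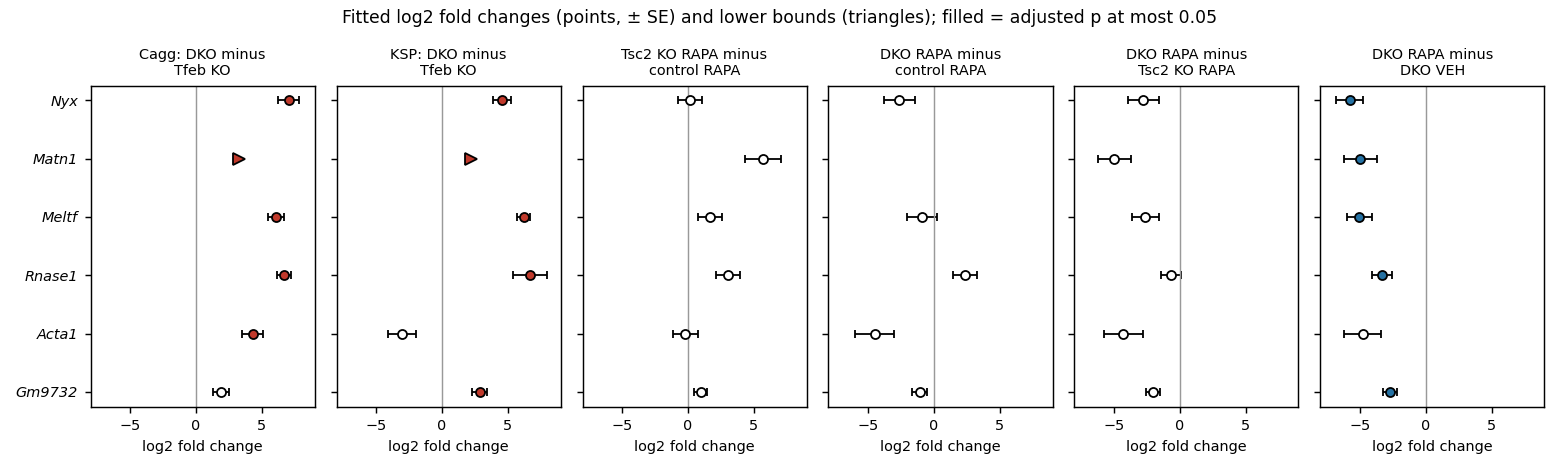
Log2 fold changes of the 6 genes in the 6 tested comparisons. Circles are fitted values with SE, triangles are lower bounds where a group had no count, and filled symbols mark an edgeR adjusted p at or below 0.05. Filled symbols appear for 5 genes in each DKO against Tfeb KO panel and for 5 in DKO with rapamycin against vehicle, and for none in the other 3 panels.

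Rapamycin in DKO kidneys was compared with vehicle in DKO kidneys, neither of which chose the members. Nyx, Matn1, Rnase1, Meltf and Gm9732 fell, 5 of 6 genes against 3.47% of the 17027 tested. The log2 change was -5.77 ± 1.03 (SE) for Nyx (edgeR adjusted p = 0.00449), -5.04 ± 0.92 for Meltf (0.0072), -3.33 ± 0.77 for Rnase1 (0.02) and -2.68 ± 0.53 for Gm9732 (0.00868). Matn1 had 2 pooled counts with rapamycin and 72 with vehicle, a ratio of 0.027 with a 95% counting interval of 0.00321 to 0.101 (edgeR adjusted p = 0.0348). Acta1 had 1 and 39 pooled counts, a ratio of 0.0249 (0.000615 to 0.147), and did not pass in edgeR (adjusted p = 0.0598) although it did in DESeq2 (0.0145). With only the groups compared, Matn1 and Acta1 were not kept by the filter and 4 genes passed. Without rapamycin replicate 2 the changes of Nyx and Meltf were -6.40 and -6.43, and without rapamycin replicate 1 that of Rnase1 was -4.07. Leaving out vehicle replicate 1, rapamycin replicate 2 or rapamycin replicate 3 lowered the count of 5 to 3, with Matn1 and Rnase1 lost each time. Proximal tubule markers summed to 8720 to 8840 FPKM with rapamycin and 3610 to 4350 with vehicle in these DKO kidneys, macrophage markers to 26.5 to 34.7 and 41.2 to 48.4, and proliferation markers to 0.701 to 2.07 and 2.28 to 2.9. Their part in the changes was not tested.

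In Tsc2 KO kidneys, rapamycin against vehicle is a description, because the vehicle kidneys helped choose the members. All 3 rapamycin kidneys lay below all 3 vehicle kidneys for every member except Matn1, that is for 5 of 6 genes where 20.6% of all genes do so. The fitted log2 differences were -5.63 ± 0.86 (SE) for Nyx, -4.89 ± 0.78 for Meltf, -4.20 ± 0.50 for Gm9732, -3.16 ± 0.75 for Rnase1 and -1.82 ± 0.93 for Acta1. Matn1 differed by -3.24 ± 0.81, and vehicle replicate 1 (0.581 FPKM) lay within the rapamycin range of 0.499 to 0.735 FPKM. In these Tsc2 KO kidneys proximal tubule markers summed to 5770 to 7770 FPKM with rapamycin and 386 to 732 with vehicle. Macrophage markers summed to 29 to 49.7 and 71.4 to 116, and proliferation markers to 1.44 to 1.54 and 6.54 to 20.8. Their part in the differences was not tested. In control kidneys every rapamycin kidney lay above every vehicle kidney for 2 of 6 genes (Meltf and Gm9732), where 9.19% of all genes do so, and nothing is read from this count.

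Differences that remained under rapamycin were tested in Tsc2 KO against control, both given rapamycin. No member passed in edgeR, where 0.505% of the 17027 genes rose, while 2 members had an unadjusted p under 0.05 and were higher, as were 7.43% of all genes, and DESeq2 called 1, Matn1. With only the groups compared, Matn1 passed (edgeR adjusted p = 0.0404) and Acta1 was not kept by the filter, and without the filter Matn1 (0.0119) and Rnase1 (0.0368) passed. Matn1 had 60 pooled counts in Tsc2 KO and 1 in controls, a ratio of 70.2 with a 95% counting interval of 12.1 to 2820 (edgeR adjusted p = 0.0928, DESeq2 adjusted p = 0.00305). Rnase1 differed by 3.07 ± 0.91 (SE) on the log2 scale (edgeR adjusted p = 0.164) and Meltf by 1.71 ± 0.91 (0.456). For both, as for Matn1, every Tsc2 KO kidney lay above every control. The share of all genes that do so was not computed here, so nothing is read from this order. Gm9732 differed by 0.96 ± 0.50 (edgeR adjusted p = 0.437), Nyx by 0.14 ± 0.90 (0.959) and Acta1 by -0.19 ± 0.96 (0.952). The Nyx value rests on rapamycin control replicate 3, without which it was 3.78 (edgeR adjusted p = 0.177). Without that kidney Rnase1 was at 4.89 and Gm9732 at 1.96, and without Tsc2 KO replicate 2 Rnase1 was at 2.17.

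DKO kidneys with rapamycin were also set against rapamycin controls. No member passed in edgeR, where 0.0176% of genes rose, 3 had an unadjusted p under 0.05 (Rnase1 higher, Nyx and Acta1 lower), as had 4.13% of all genes in either direction, and DESeq2 called 0. With only the groups compared, Nyx, Matn1, Meltf and Acta1 were not kept by the filter, so they entered through groups in which they are high. Rnase1 was at 2.38 ± 0.92 (SE) on the log2 scale and Nyx at -2.63 ± 1.17, which were 4.20 and 1.00 without rapamycin control replicate 3, and the edgeR adjusted p of every member was 1. Matn1 had at most 2 pooled counts in either group, so no fold is given.

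Under rapamycin, DKO was finally compared with Tsc2 KO, which asks whether Tfeb loss lowers these genes further. No member passed in edgeR, where 0.206% of genes fell, while 5 had an unadjusted p under 0.05, all lower in DKO, as had 5.56% of all genes, and DESeq2 called 2, Matn1 and Gm9732. With only the groups compared, Nyx and Acta1 were not kept by the filter, and without the filter Matn1 (adjusted p = 0.0199) and Gm9732 (0.0258) passed in edgeR. Matn1 had 2 against 60 pooled counts, a ratio of 0.0271 with a 95% counting interval of 0.00321 to 0.102 (edgeR adjusted p = 0.137). Gm9732 differed by -2.04 ± 0.54 (SE) on the log2 scale (edgeR adjusted p = 0.141), Nyx by -2.78 ± 1.17 (0.4) and Meltf by -2.61 ± 1.00 (0.354). With 1 library left out, Nyx ran from -3.4 to -2.3 and Meltf from -4 to -2.21. Acta1 had 1 against 22 pooled counts (edgeR adjusted p = 0.281). Rnase1 overlapped between the groups, at -0.69 ± 0.76 (edgeR adjusted p = 0.802).

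Without rapamycin, the comparison of DKO with Tsc2 KO uses Tsc2 KO kidneys that chose the members and is again a description. In CaggCreERT2 kidneys 2 of 6 genes (Acta1 and Gm9732) were lower in every DKO kidney, where 14% of all genes were. In untreated KspCre kidneys 4 of 6 were (Nyx, Matn1, Meltf and Gm9732), where 10.9% of all genes were, and with vehicle 2 of 6 (Nyx and Gm9732), where 19.3% were. Gm9732 was the only member of the 6 in all 3 counts, and Rnase1 was in none. The fitted Rnase1 differences were 0.59 ± 0.34 (SE), -1.21 ± 0.83 and -0.52 ± 0.68 on the log2 scale in the CaggCreERT2, KspCre and vehicle cohorts. Proximal tubule markers summed to 4430 to 5050 FPKM in CaggCreERT2 DKO and 441 to 3580 in Tsc2 KO. In untreated KspCre kidneys these sums were 4500 to 7740 and 893 to 2040, and with vehicle 3610 to 4350 and 386 to 732. Their part in the differences between DKO and Tsc2 KO was not tested.

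Markers of other tissues in which Matn1, Meltf and Rnase1 are known were read beside them. Cartilage markers (8 genes, among them Col2a1 and Acan) summed to 0.186 to 2.24 FPKM over all 42 libraries, and to 0.732 to 0.885 in KspCre Tsc2 KO kidneys, where Matn1 was at 7.72 to 10.7, against 0.707 to 1.8 in their controls. Melanocyte markers (5 genes) summed to 1.09 to 2.02 FPKM in CaggCreERT2 Tsc2 KO kidneys and 0.144 to 0.712 in controls, and to 0.94 to 2.18 in vehicle Tsc2 KO and 0.3 to 0.436 in vehicle controls. These sums overlapped in untreated KspCre kidneys, at 0.68 to 1.72 FPKM in Tsc2 KO and 0.475 to 0.814 in controls. In DKO they summed to 0.367 to 0.757 FPKM in CaggCreERT2 kidneys, overlapping the controls while Meltf was at 3.85 to 4.7, and above the 0.114 to 0.241 of Tfeb KO. In vehicle DKO they were at 0.284 to 0.57 FPKM, again overlapping the controls. Their part in the Meltf level was not tested. Exocrine pancreas markers (7 genes, with Cela1 left out) held 10, 30 and 4 counts in vehicle DKO and 1, 0 and 0 in rapamycin DKO. They held 62, 1 and 1 counts in vehicle Tsc2 KO, where Rnase1 was at 33.6, 42.5 and 36.5 FPKM. In untreated KspCre DKO they were at 0 in each kidney, where Rnase1 was at 8.54 to 23 FPKM. Their part in the Rnase1 level was not tested. Proliferation markers (4 genes) summed to 10.1 to 14.1 FPKM in KspCre Tsc2 KO kidneys against 0.69 to 2.21 in controls, and to 12.9 to 29.4 against 13.6 to 17.9 in the younger CaggCreERT2 cohort.

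Family members were counted for each gene. Among 14 small leucine-rich repeat proteins, the family of nyctalopin, 2 fell in edgeR in CaggCreERT2 DKO against Tfeb KO and 0 rose, where 3.86% of all genes fell. DESeq2 called 2 lower and 0 higher in that comparison. Tsku, a secreted Wnt and TGF-beta modulator, was at -1.53 and Podn, podocan, at -0.62 on the log2 scale. In KspCre kidneys 2 of 13 fell in edgeR (Podn, -0.72, and Chadl, -0.90) and 0 rose, where 2.35% of all genes fell. DESeq2 called 2 higher and 3 lower there. The same numbers had an unadjusted p under 0.05, as had 26.5% of all genes in either direction. The transferrin list held relatives of transferrin and also transferrin receptors, so its counts are not of relatives of melanotransferrin alone. The 2 other matrilins kept, the 4 transferrin list genes kept and the 4 other actins had 0 calls in edgeR in every tested comparison. In CaggCreERT2 DKO against Tfeb KO, 0 of the matrilins, 2 of the transferrin list (1 higher, 1 lower) and 0 of the actins had an unadjusted p under 0.05, where 27.2% of all genes had, and DESeq2 called 0. In KspCre kidneys these numbers were 1 (lower), 4 (all higher, median log2 change 1.59) and 1 (higher), where 26.5% of all genes had, and DESeq2 called 0, 1 and 1. In the 4 rapamycin comparisons, 1 transferrin list gene and 1 actin had an unadjusted p under 0.05, each in a single comparison, and DESeq2 called only the transferrin list gene, lower with rapamycin in DKO, where 11.4% of all genes were lower at that level. In the ribonuclease A family 2 of 3 genes rose in edgeR in the CaggCreERT2 comparison, where 8.36% of all genes rose. Rnase4 rose by 4.66 (edgeR adjusted p = 6.26e-05) and Ang, angiogenin, by 4.32 (3.54e-04) on the log2 scale.

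The known targets of TFEB and TFE3 (20 genes of lysosomal and nutrient-sensing function) were read in the same comparisons. In CaggCreERT2 DKO against Tfeb KO 13 rose and 0 fell, where 8.36% of all genes rose, with Hexa, a lysosomal hexosaminidase subunit, at 2.16 and the protease Ctsb at 1.97 on the log2 scale. In KspCre kidneys 8 rose and 0 fell, where 3.41% of all genes rose, with Hexa at 1.85 and Ctsd at 1.03. Under rapamycin 3 rose in Tsc2 KO against control, where 0.505% of all genes rose, among them the proton pump subunit Atp6v0d2 (1.59) and the GTPase Rragd (1.14). With rapamycin in DKO 10 fell, where 3.47% of all genes fell, with Hexa at -1.68 and Atp6v0d2 at -1.40. In DKO against Tsc2 KO under rapamycin Atp6v0d2 alone fell in edgeR, where 0.206% of all genes fell. DESeq2 called 4 lower there, and 9 had an unadjusted p under 0.05 and were lower, as had 5.56% of all genes. The list was put together with results of these data known.

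Genes within 100 kb of each member were examined, and those named here were chosen after their values were seen. Of 19 neighbours kept, 6 rose in CaggCreERT2 and 2 in KspCre DKO against Tfeb KO, where 8.36% and 3.41% of all genes rose. Of 20 kept in the rapamycin cohort, 3 fell with rapamycin in DKO, where 3.47% of all genes fell, and 1 rose, as did 358 of 17027 genes. In Tsc2 KO against control under rapamycin 1 rose, where 0.505% of all genes rose. Among these calls, Rab4a beside Acta1 rose by 0.58 on the log2 scale in CaggCreERT2 DKO (edgeR adjusted p = 0.0268), and Gm8126 beside Gm9732 rose by 1.74 with rapamycin in DKO (0.0378), where Gm9732 fell. Gm14506, a predicted gene 1.18 kb downstream of Nyx on the other strand (chrX:13490498-13491033), was at 4.33, 4.77 and 5.28 FPKM in CaggCreERT2 DKO and at 0, 0.122 and 0 in Tfeb KO. It rose there (ratio of pooled counts 113, 95% counting interval 19.9 to 4490, edgeR adjusted p = 0.00197) and in KspCre DKO (at least 6.07-fold, 0.0408), and it fell with rapamycin in DKO (at least 8.08-fold, 0.0205). Its counts were 3, 27 and 22 in KspCre DKO and 28, 9 and 36 in vehicle DKO, against 52 to 99 and 110 to 137 in the matching Tsc2 KO groups. In these KspCre comparisons it could therefore pass the filter through the Tsc2 KO libraries, where it is high. As the libraries did not mark strand, reads that run on past the end of Nyx and reads of Gm14506 cannot be told apart. Pigz, a mannosyltransferase of lipid anchor synthesis whose gene lies 34.8 kb downstream of Meltf (chr16:31933851-31946046), rose by 4.01 ± 0.32 (SE) in CaggCreERT2 and 3.40 ± 0.38 in KspCre DKO on the log2 scale (edgeR adjusted p = 1.10e-05 and 0.00243). Pigz also rose in Tsc2 KO under rapamycin, by 2.53 ± 0.55 (edgeR adjusted p = 0.0482), where Meltf itself did not pass, and fell with rapamycin in DKO (-2.84 ± 0.55, edgeR adjusted p = 0.00793).

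Rnase1 lies in a cluster with Rnase4, Ang and the secreted epididymal protein gene Eddm3b, 38.8, 43 and 27.2 kb away. In CaggCreERT2 DKO against Tfeb KO all 3 rose, Eddm3b by 2.77 on the log2 scale (edgeR adjusted p = 0.00142), and Eddm3b was at 1.37 to 2.05 FPKM in Tsc2 KO of that cohort and 1.36 to 2.17 in controls, while Rnase6, at 12.8 kb, was at -0.31 ± 0.52 (SE, 0.746). In KspCre kidneys none of them passed in edgeR, with Rnase4 at 2.25 ± 0.76 (edgeR adjusted p = 0.0939) and Ang at 2.22 ± 0.72 (0.0841). DESeq2 called 2 of the 4 ribonuclease A family genes kept there higher. With rapamycin in DKO, Ang fell (-3.61 ± 0.59, edgeR adjusted p = 0.00252) and Rnase4 was at -3.08 ± 0.99 (0.0788). In each of the 3 KspCre control groups, the kidney with the most Rnase1 also had the most Rnase4, Ang and Eddm3b. In untreated controls these were 2.02 FPKM of Rnase1 and 39.2 of Rnase4 in replicate 3, against Rnase4 levels of 7 and 10.1 in the others. The same order held in untreated KspCre Tsc2 KO kidneys but not in every group. Among vehicle Tsc2 KO kidneys, the kidney with the most Rnase1 had the least Rnase4. Among CaggCreERT2 controls, the kidney with the most Rnase1 was not the kidney with the most Rnase4.

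**Figure D4:**
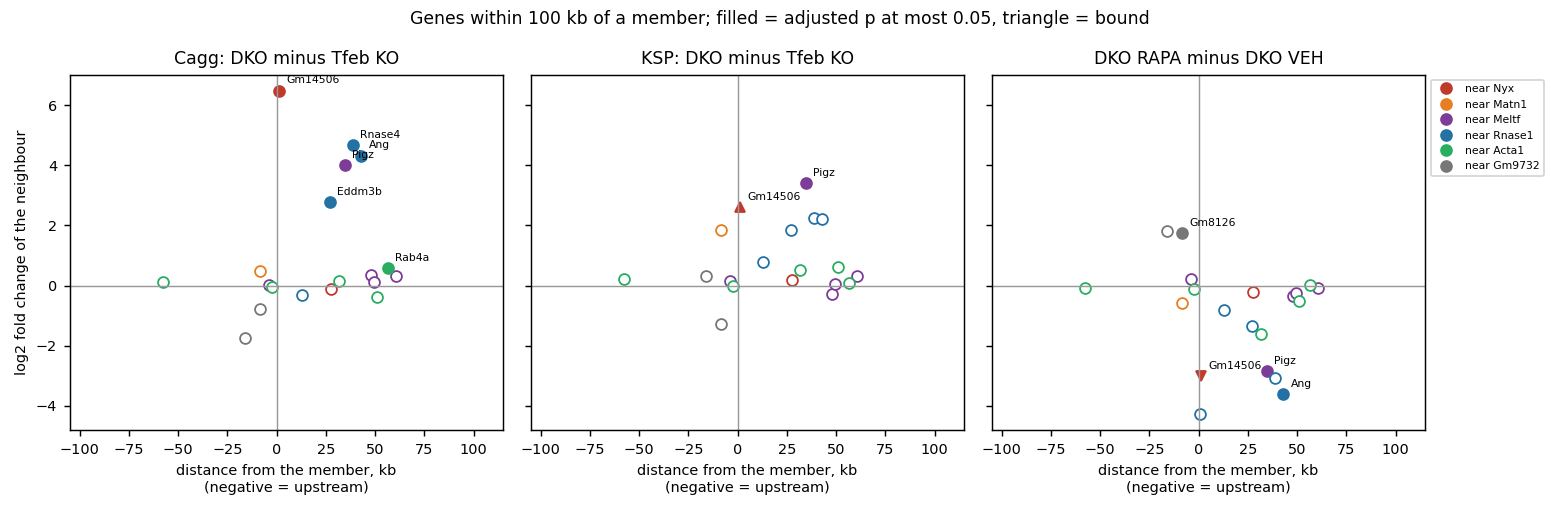
Log2 fold changes of genes within 100 kb of each member against distance from the member in kb (negative is upstream), in 3 tested comparisons. Filled symbols passed in edgeR, triangles are bounds, and neighbours with 3 or fewer counts in both groups are left out. Gm14506 beside Nyx, Pigz beside Meltf and Rnase4, Ang and Eddm3b beside Rnase1 stand above the other neighbours in the CaggCreERT2 panel.

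Likeness over the 14 groups was measured as Pearson r of mean log2(FPKM + 0.1), each group taken relative to its own control, among 15762 genes. It is a description, as the groups share controls and depth and include the control and Tsc2 KO groups that chose the members. A high r between members, or with genes that respond to Tsc2 loss, is therefore partly set by that choice. Nyx was most like Gm14506 (r = 0.998), the cell cycle inhibitor Cdkn1a (0.993) and the F-BAR protein gene Fchsd1 (0.992), and Meltf was most like Fchsd1 (0.996), Gm14506 (0.995) and the heme oxygenase Hmox1 (0.989). Matn1 was most like Dpysl3 (0.971), the melanosome transport gene Mreg (0.965) and Pigz (0.960), and Rnase1 was most like Tnip1 (0.969), the sestrin Sesn3 (0.967) and Camk2n2 (0.966). Gm9732 was most like Pigr, the receptor that carries IgA across epithelia (0.983), C77080 (0.982) and the splicing factor Prpf31 (0.980). Acta1 had the lowest best match, Dtnbp1 (0.940), followed by Tmem37 (0.931) and the lysosomal transporter Spns1 (0.930). Among the members the highest r was that of Nyx and Meltf (0.99), and pairs with Acta1 ran from 0.55 to 0.73.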

How the data were processed

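RNA from whole mouse kidneys was sequenced in 42 libraries (14 groups, n = 3). The submitters' processing notes name STAR 2.6.1d, HISAT2 2.0.5, featureCounts 1.5.0-p3, DESeq2 1.20.0 and mm10, without giving roles. The authors deposited raw read counts per gene and FPKM values computed from them, with annotation. Library preparation was poly-A selected and did not mark strand. Groups follow the labels, and for CaggCreERT2 the names of the FPKM table. Columns of both tables were matched by the constant ratio of their values within a library. The labels do not tie numbers to litters, and no library pair agreed within sampling noise (chi-square per gene 15.2 to 80.2).

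Counts were fitted in edgeR 4.0.16 (R 4.3.3; filterByExpr, TMM, glmQLFit, glmQLFTest) with all groups of a cohort together. The filter kept 16348, 16631 and 17027 genes of 54532. Benjamini-Hochberg adjustment ran over all of these, and calls required an adjusted p at or below 0.05. SE is the absolute log2 change divided by the square root of F. Groups at 0 were given a floor of 3 counts per library, and groups with 1 to 3 pooled counts a ratio with an exact 95% interval, which covers counting error only. FPKM values were described per kidney. Alternatives were DESeq2 1.42.0, RLE scaling, no filter, an FPKM minimum of 5, only the groups compared, a replicate block, each library left out, the other CaggCreERT2 names and Xist as a covariate.

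The named genes are the 6 members, Tsc2 and Tfeb, the 3 genes most like each member, the 2 list members with the lowest adjusted p, and neighbours. Xist and the marker genes Pvalb, Ckm, Myh4, Tnnt3, Cela1, Col2a1 and Acan are named outside this rule. The members and lists were chosen with earlier results of these data known. The tests were run on simulated data first. Promoters come from RefSeq (GRCm38.p6).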

Additional observations from a re-analysis of the deposited data

Results flagged for a closer look

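Acta1 differed in direction between the cohorts when DKO was compared with Tfeb KO. In CaggCreERT2 kidneys it was 4.29 on the log2 scale (edgeR adjusted p = 0.0041) with every DKO kidney above every Tfeb KO kidney. In untreated KspCre kidneys it was -3.06 and did not pass (edgeR adjusted p = 0.0978), with every DKO kidney below. With only the KspCre groups compared, Acta1 was not kept by the filter, so it entered that test through the Tsc2 KO libraries, which helped choose it. The difference between the cohorts was not tested, and the cohorts also differ in Cre line and age. The KspCre value without Tfeb KO replicate 3 was -1.36.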

How the results depend on the processing

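In edgeR 5 members passed in CaggCreERT2 DKO against Tfeb KO, in KspCre DKO against Tfeb KO and with rapamycin in DKO. With the FPKM minimum of 5 each count was 1. In the CaggCreERT2 comparison the count was 3 with Xist as a covariate and 0 under the names of the count table, where Gm9732 turned to -0.50 on the log2 scale. With only the groups compared in the fit, the KspCre count was 2. For Tsc2 KO against control under rapamycin, the count of 0 became 1 in DESeq2, 2 without the filter and 1 with only the groups compared, and for DKO against Tsc2 KO under rapamycin it became 2 in DESeq2 and 2 without the filter. With each library left out in turn, the counts ran from 4 to 6 in CaggCreERT2, 3 to 5 in KspCre and 3 to 5 with rapamycin in DKO, and stayed at 0 in the other 3 comparisons. Matn1 lost its call in 5 of 6 such fits in each of the 3 comparisons. Leaving out a library turned the direction of uncalled values: Nyx (-0.41 to 3.78) and Acta1 (-1.06 to 2.01) in Tsc2 KO against control under rapamycin, Nyx (-3.26 to 1.00) and Matn1 (-1.87 to 2.6) in DKO against control under rapamycin, and Rnase1 (-1.43 to 0.21) in DKO against Tsc2 KO under rapamycin. The replicate numbers only share a number (correlations of deviations -0.26 to 0.21). With a replicate block the counts were 5, 4 and 4 in the 3 comparisons with calls and 0 in the others, and Acta1 turned to 0.18 in Tsc2 KO against control under rapamycin. The cause of these changes was not tested. With a pseudocount of 1 FPKM, 2, 1, 0, 2, 1 and 0 of the 3 most similar genes were kept for Nyx, Matn1, Rnase1, Meltf, Acta1 and Gm9732.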
